A study of Mus musculus with 4 samples.

Results

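The genes described here encode the subunits of heterotrimeric G proteins and the RGS proteins, which switch them off. Members were the probe sets whose 1 gene symbol in the platform's annotation named a G protein alpha subunit (Gnai, Gnao, Gnaq, Gnas, Gnat, Gnaz and the numbered Gna genes), a beta subunit from Gnb1 to Gnb5, a gamma subunit or a numbered RGS protein, with Rgs9 left out. This took 62 of the 12488 probe sets, for 39 genes. One of the 39, Gnasas1, matched the pattern but is an antisense transcript of the Gnas locus, and was kept out of the counts. The other 38 genes had 61 probe sets and comprised 14 alpha, 5 beta and 7 gamma subunits and 12 RGS proteins.

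Visual cortex RNA of wild-type mice (C57Bl6) was measured on 4 single-colour Affymetrix arrays. All 5 mice lived in darkness from birth until 1 eye was removed on postnatal day 42, then spent 4 days under a normal light cycle and were killed on postnatal day 46. Cortex on the side opposite the removed eye is termed deprived, cortex on the same side non-deprived, with 2 pooled samples of each. Both groups thus share the dark rearing and the 4 days of first light, and neither is a cortex reared in light. The division of the 5 mice over the pools is not stated in those sources that were used here. The p-values therefore measure only the spread between these 4 arrays, which may be partly technical. The values are MAS5 signals in arbitrary units, and signals of different probe sets are not comparable as levels.

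A heterotrimeric G protein is held at the membrane as an alpha subunit with bound GDP and a beta-gamma dimer. An activated receptor makes the alpha subunit exchange GDP for GTP, and alpha and beta-gamma then act on enzymes and ion channels such as adenylyl cyclase, phospholipase C beta and inwardly rectifying potassium channels. RGS proteins speed the hydrolysis of GTP by alpha subunits, mainly those of the Gi/o and Gq classes, and so end the signal. In cortical neurons these proteins carry the signals of metabotropic glutamate, GABA-B, acetylcholine, monoamine and neuropeptide receptors.

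Rgs4, the member with the largest difference, lies next to Rgs5 on chromosome 1, with no protein-coding gene between them in the RefSeq annotation of GRCm38.p6. Members formed 5 such neighbouring pairs, the others being Rgs8 with Rgs16, Gna11 with Gna15, Gnaq with Gna14 and Gnat2 with Gnai3. The 250 bases before their annotated starts are shown because signals of both genes were lower on each deprived array than on each non-deprived array. Both are RefSeq sequences of GRCm38.p6, read 5′ to 3′ on the gene's own strand. The Rgs4 window is chr1:169747643-169747892 on the minus strand and that of Rgs5 chr1:169655251-169655500 on the plus strand. Capitals mark matches to the motifs searched.
Rgs4: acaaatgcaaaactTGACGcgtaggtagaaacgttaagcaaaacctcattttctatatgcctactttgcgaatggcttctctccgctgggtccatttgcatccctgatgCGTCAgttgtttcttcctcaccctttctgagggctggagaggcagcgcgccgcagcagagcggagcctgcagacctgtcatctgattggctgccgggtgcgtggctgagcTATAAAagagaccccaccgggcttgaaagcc
Rgs5: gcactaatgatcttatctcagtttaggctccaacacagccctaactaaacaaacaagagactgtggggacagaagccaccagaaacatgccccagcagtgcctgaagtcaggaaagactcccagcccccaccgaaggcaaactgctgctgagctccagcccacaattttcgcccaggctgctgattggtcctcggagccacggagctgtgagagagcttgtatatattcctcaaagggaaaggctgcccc
The motifs were the cyclic AMP response element (TGACGTCA), its half-site (TGACG, which the full element contains), an AP-1 site (TGACTCA), an EGR site (GCGTGGGCG) and a TATA box (TATAAA), each on both strands. In Rgs4 the matches were 2 half-sites, the first base of which lay 236 and 141 bases before the start, and a TATA box at 31 bases before it. The Rgs5 window had no match to these letters. A half-site stood in 17.8% of all 32851 windows of this length and a TATA box in 12.4%. Of the 29 member genes with a window, 6 had a half-site (Gnas, Gnb1, Gng4, Rgs2, Rgs4 and Rgs8), 4 had a TATA box (Gnas, Gnb5, Rgs3 and Rgs4) and 0 had the full cyclic AMP response element, which 1.55% of all windows held. Those 29 genes had 39 windows. A gene was counted if any of its windows matched, while the percentages are per window. All these matches describe letters and not binding.

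The comparison asked which of these transcripts responded to the loss of contralateral eye input after the animals had been brought into light. One value per gene was taken from its brightest probe set. Of the 38 genes, 29 passed the filter on dim signals, a mean over the 4 arrays of at least 142.9, and 9 did not. In limma's fit over all probe sets, 0 of the 29 passed an adjusted p of 0.05. At an unadjusted p under 0.05 there were 2 with a lower signal in deprived cortex, Rgs4 and Gnaz, and 2 with a higher one, Gna11 and Gnb1. Over all 5649 genes tested, 0.0885% passed as lower and 0% as higher, and the shares at the unadjusted level were 3.19% for lower and 1.73% for higher. The members' median log2 fold change was 0.01, with 14 genes lower and 15 higher, and that of all genes tested was 0.01 as well.

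Signals of the arrays did not overlap between groups for 4 lower and 7 higher members, against 16.4% of all genes tested that were lower and 15.4% that were higher without overlap. The 4 lower members were Rgs4, Rgs5, Gnaz and Gng2, and the 7 higher ones Gna11, Gna12, Gna13, Gnai2, Gnb1, Gnb5 and Gng10. In 1 member, Rgs4, every one of the 4 pairings of a deprived with a non-deprived array differed by 1.5-fold or more, always the same way. Of all genes tested, 1.24% were lower and 0.266% higher by this rule.

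**Figure D1:**
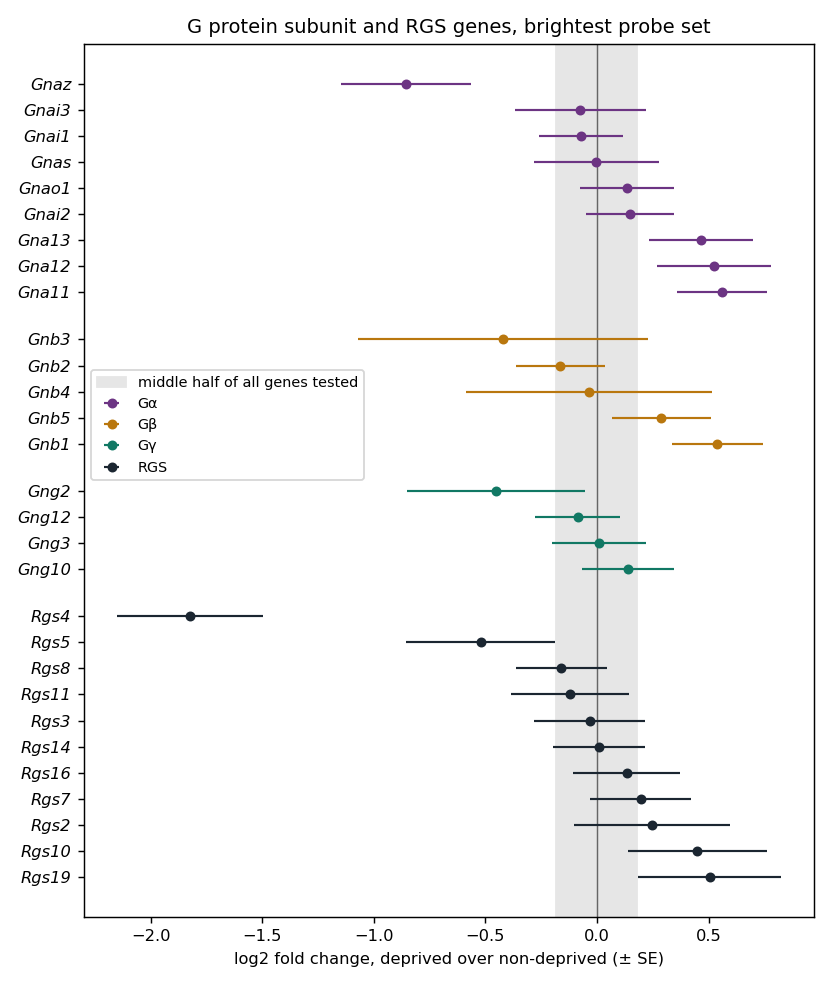
Log2 fold change of deprived over non-deprived cortex on the log2(signal + 60.6) scale for the 29 tested members at their brightest probe set, grouped as Gα, Gβ, Gγ and RGS; bars are standard errors of limma's fit (2 arrays per group) and the grey band is the middle part of all 5649 genes, from the 25th to the 75th percentile (-0.18 to 0.18). Rgs4 at -1.82 lies farthest from 0, while Gna11, Gna12, Gna13 and Gnb1 lie between 0.47 and 0.56.

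The alpha subunits of the Gi/o class inhibit adenylyl cyclase, and all 5 on the array were tested. Gnaz, which encodes the slowly hydrolysing alpha-z subunit of neurons, had signals of 285 and 475 in the deprived samples 1 and 2, and of 602 and 854 in the non-deprived samples 1 and 2. Its deprived mean was 380 ± 135 and its non-deprived mean 728 ± 178 (SD, n = 2 per group). The log2 fold change was -0.86 ± 0.29 (SE), with an adjusted p of 0.62 in limma. Both deprived arrays lay below both non-deprived arrays, though the spread within each group was wide, and the value ran from -0.54 without deprived array 1 to -1.17 without deprived array 2.

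Gnao1 encodes alpha-o, the main alpha subunit of brain membranes. At its brightest probe set the signals were 11536 and 14628 in deprived and 12555 and 11134 in non-deprived cortex, and the groups overlapped (log2 fold change 0.14 ± 0.21, SE). A dimmer probe set of Gnao1 read 227 and 213 against 538 and 410.1, with no overlap (-0.92 ± 0.32, adjusted p = 0.64 in limma). The other 2 tested probe sets of Gnao1 gave -0.43 ± 0.21 and 0.11 ± 0.20, so the gene's probe sets differed in direction. The mean over its tested probe sets was -0.28.

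Gnai1, an inhibitory alpha subunit, had 2 tested probe sets of the same sign and unequal size. Its brightest probe set gave 1720.4 and 2185 in deprived and 1836 and 2273 in non-deprived cortex, where the arrays numbered 2 were above those numbered 1 and the groups overlapped (-0.07 ± 0.19, SE). Its dimmer probe set gave 262 and 162 against 441 and 599.8, with no overlap. There the log2 fold change was -1.10 ± 0.34, a 2.15-fold difference, with an adjusted p of 0.51 in limma. The log2 fold change was -1.37 without deprived array 1 and -0.84 without deprived array 2. Without non-deprived array 1 or 2 it was -1.30 and -0.90.

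Gnai2, the most widely expressed inhibitory alpha subunit, had 3 tested probe sets that gave 0.15, 0.16 and 0.23 on the log2 scale, each with a standard error of 0.17 to 0.20. Its brightest probe set carries the suffix by which the array's maker marks probes that can match a family of sequences, so related transcripts may add to it. Gnai3 read 565 and 1034 in deprived and 639 and 1024 in non-deprived cortex, so its arrays sorted by replicate number and not by group (-0.07 ± 0.29).

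Gnas encodes the stimulatory alpha subunit, which activates adenylyl cyclase, and its imprinted locus also gives other transcripts. Its brightest probe set read 25102 and 35389 in deprived and 27194 and 32767 in non-deprived cortex. The groups overlapped and the log2 fold change was 0.00 ± 0.28 (SE), with both arrays numbered 2 above both numbered 1. The 2 dimmer Gnas probe sets gave -0.26 ± 0.52 and -0.08 ± 0.59. The antisense transcript Gnasas1 had signals from 37.0 to 84.4 and was too dim to test.

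The alpha subunits of the Gq/11 and G12/13 classes that were tested stood higher on each deprived array than on each non-deprived array. Gna11, which couples receptors to phospholipase C beta, read 963 and 1162 in deprived and 688 and 707 in non-deprived cortex. Its means were 1063 ± 140.5 and 698 ± 13.1 (SD, n = 2 per group), a 1.48-fold difference with a log2 fold change of 0.56 ± 0.20 (SE) and an adjusted p of 0.69 in limma. Its dimmer probe set read 114 and 222 against 136 and 473, overlapping and opposite in sign (-0.55 ± 0.53), and the mean over the 2 probe sets was 0.01.

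Gna12 and Gna13 encode alpha subunits that activate guanine nucleotide exchange factors of the small GTPase RhoA. Gna12 read 875 and 570.3 in deprived and 478 and 468 in non-deprived cortex, a log2 fold change of 0.52 ± 0.26 (SE, adjusted p = 0.94 in limma). Gna13 read 934 and 679 against 597 and 526, a log2 fold change of 0.47 ± 0.23 (adjusted p = 0.94). For both genes deprived array 1 was the farthest above the rest, and without it the values were 0.24 and 0.25. A dimmer Gna13 probe set gave 0.78 ± 0.48 with signals of 430 and 176 against 151 and 126, again with no overlap. That value was 0.25 without deprived array 1 and 1.30 without deprived array 2, and the non-deprived mean of 138 lay under the filter. The dimmer Gna12 probe set, too dim to test, went the other way, with 36.6 and 137 in deprived and 223 and 172 in non-deprived cortex.

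The other members of these classes, Gnaq, Gna14 and Gna15, were too dim to test. Gnaq, a close relative of Gna11, read 83.0 and 183 in deprived and 125 and 167 in non-deprived cortex, so the groups overlapped. Gna14 and Gna15 had overlapping groups too, with signals from 3.0 to 20.2 and from 24.7 to 142. The transducins Gnat1 and Gnat2, known from rod and cone photoreceptors, were also too dim to test. Gnat2 read 50.4 and 33.5 against 129 and 103, and Gnat1 34.6 and 27.3 against 77.6 and 55.7, each with no overlap. The shares of genes without overlap given above cover tested genes only. For these and the other probe sets too dim to test, no such share was counted. Photoreceptor genes served as a check. Of 5 on the array 4 were too dim to test, none of them was listed at 0, and the sum of the 5 was 609.95 and 472 in deprived and 698 and 472 in non-deprived cortex. The 1 that was tested, Crx, read 119 and 177 in deprived and 366 and 282 in non-deprived cortex, lower without overlap like Gnat1 and Gnat2 (-0.89 ± 0.41, SE, adjusted p = 0.91 in limma). Whether signals this low stand for expression was not tested.

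**Figure D2:**
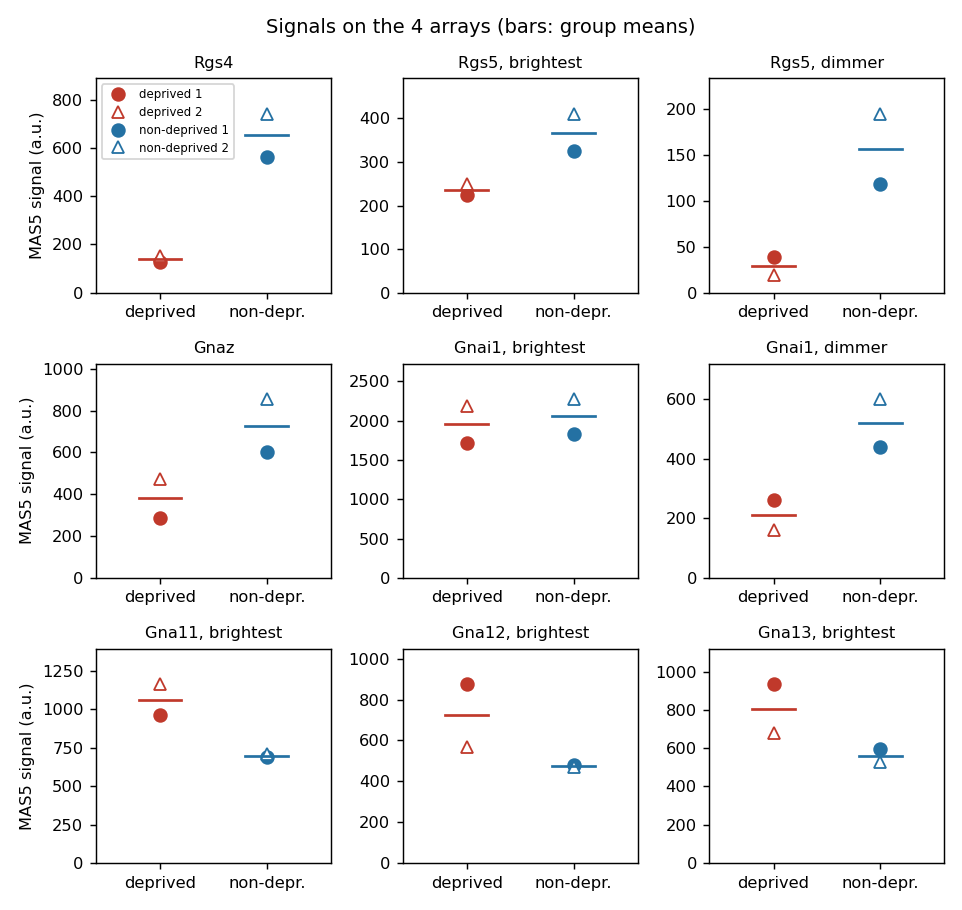
MAS5 signal (arbitrary units, axes from 0) of 9 probe sets of Rgs4, Rgs5, Gnaz, Gnai1, Gna11, Gna12 and Gna13 on each of the 4 arrays; red marks are deprived, blue non-deprived, circles replicate 1, triangles replicate 2, and short bars group means. The groups separate in every panel except the brightest Gnai1 probe set, downward for Rgs4, Rgs5, Gnaz and the dimmer Gnai1 probe set and upward for the Gna11, Gna12 and Gna13 probe sets drawn.

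Over the 9 tested alpha subunits the median log2 fold change was 0.14, with 4 lower and 5 higher. This median was -0.04 without the filter on dim signals and -0.07 when all tested probe sets of a gene were averaged, so it had no settled sign.

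The beta subunits form the dimer with gamma that opens potassium channels and inhibits presynaptic calcium channels. All 5 were tested. Gnb1 read 4275 and 6405 in deprived and 3577 and 3584 in non-deprived cortex, a log2 fold change of 0.54 ± 0.20 (SE) with an adjusted p of 0.75 in limma. The non-deprived arrays nearly coincided and deprived array 2 was the highest, and without deprived array 1 the value was 0.83. Without deprived array 2 it was 0.25, and the mean over the tested probe sets of Gnb1 was 0.15. The other 2 tested probe sets of Gnb1 gave -0.11 ± 0.19 and 0.03 ± 0.41.

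Gnb5, the beta subunit that pairs with RGS proteins of the R7 family in place of gamma, read 672 and 718 against 555 and 561. Its log2 fold change was 0.29 ± 0.22 (adjusted p = 0.999 in limma), with no overlap and little spread within either group. Gnb2 read 2734 and 3891 in deprived and 3366 and 3984 in non-deprived cortex, and the groups overlapped (-0.16 ± 0.20). Gnb3 and Gnb4 were dim and uneven, at -0.42 ± 0.65 and -0.04 ± 0.55. On deprived arrays 1 and 2 Gnb3 read 303 and 35.2, a wider gap than between the group means. The class median was -0.04 with 3 lower and 2 higher, and 0.29 over the 3 genes left by a filter at the 60th percentile.

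Gamma subunits carry the lipid anchor of the dimer, and 4 of 7 were tested. Gng3, a gamma subunit of neurons, read 8040 and 11105 in deprived and 8963 and 9823 in non-deprived cortex (0.01 ± 0.21, SE). Gng12 read 912 and 1002 against 995.5 and 1044 at its brightest probe set (-0.09 ± 0.19). For both genes the difference was smaller than the spread within the deprived group. Gng2 read 183 and 178 in deprived and 257 and 283 in non-deprived cortex, with no overlap (-0.45 ± 0.40, adjusted p = 0.999 in limma). Gng10 gave 0.14 ± 0.20. Gng4, Gng11 and Gngt2 were too dim to test. Gng11 read 93.5 and 37.9 in deprived and 97.4 and 109 in non-deprived cortex, with no overlap. Gngt2, a gamma subunit of cone photoreceptors, stood out on deprived array 1 alone, at 203 against 4.60 to 21.7 on the other arrays. The class median was -0.04, with 2 lower and 2 higher.

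The RGS genes showed the widest range, from -1.82 for Rgs4 to 0.50 for Rgs19, and 11 of 12 were tested. Rgs4, which acts on Gi/o and Gq alpha subunits in cortical neurons, read 126 and 154 in deprived and 564 and 741 in non-deprived cortex. The 4 pairs of arrays gave log2 differences of -1.74, -2.10, -1.54 and -1.90, so each pair differed by a like amount. The means were 139.8 ± 19.8 and 653 ± 125 (SD, n = 2 per group), a 3.54-fold difference on the log2(signal + 60.6) scale. The deprived mean lies under the filter of 142.9, so Rgs4 was tested only because of its non-deprived signals, the 1 tested member of which this holds at the brightest probe set. Without detection calls it is not known whether the deprived signals stand above background, and the size of the fold depends on the constant added: the log2 fold change was -1.49 with 142.9 in place of 60.6. limma gave -1.82 ± 0.33 (SE) with an adjusted p of 0.077. Rgs4 had 1 probe set on the array, so no further probe set could check it.

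With 1 array left out, the log2 fold change of Rgs4 was smallest in size without non-deprived array 2, at -1.64. Such fits have a single array in 1 group, so their p-values are not used. With all arrays, the adjusted p of Rgs4 in limma was 0.22 after quantile normalization and 0.62 without the variance trend. The log2 fold change stayed at or below -1.49 in all 12 alternatives. Of 3 ratios that bear on RNA quality, 2 separated the groups: the 5′ to 3′ signal ratio of actin was 0.544 and 0.463 on the deprived and 0.638 and 0.632 on the non-deprived arrays, and that of Gapdh 0.745 and 0.689 against 0.875 and 1.07. That of the transferrin receptor did not, at 0.269 and 0.474 against 0.270 and 0.0758. Their part in the Rgs4 value, and in the values of the other members, was not tested. Immediate-early genes, which neurons switch on when they fire, were lower in the same arrays: all 6 on the list were below 0, with a median of -1.20, and 2 of them, Fos and Junb, passed the adjusted threshold in limma.

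Rgs5, the neighbour of Rgs4, is known from pericytes of brain capillaries. Its brightest probe set read 224.5 and 249 in deprived and 325 and 410.0 in non-deprived cortex. The log2 fold change was -0.52 ± 0.33 (SE, adjusted p = 0.99 in limma), with no overlap. Its dimmer probe set, below the filter, read 38.7 and 19.3 against 118 and 194, also with no overlap. The list of endothelial and pericyte markers did not separate the groups. Of its 7 genes on the array 4 were tested, 2 lower and 2 higher, none was at 0, and their summed signal was 1643 and 1259 in deprived and 1270.3 and 1229 in non-deprived cortex. The pericyte receptor gene Pdgfrb itself was too dim to test, at 156 and 85.1 against 132 and 77.7. In bulk tissue, fewer cells of a type and less RNA per cell cannot be told apart.

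The other members of the R4 family, the small RGS proteins with little beyond the RGS domain, stood closer to 0. Rgs2, Rgs3, Rgs8 and Rgs16 gave 0.25 ± 0.35, -0.03 ± 0.25, -0.16 ± 0.20 and 0.13 ± 0.24 (SE), each with overlapping groups. Rgs2, which prefers Gq and is known as an activity-induced gene of neurons, read 384 and 277 in deprived and 222 and 316 in non-deprived cortex. Rgs8 and Rgs16 had opposite signs, while Rgs4 and Rgs5 had the same one. The differences of Rgs2, Rgs3, Rgs8 and Rgs16 from Rgs4 were not tested as such.

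The R7 family binds Gnb5. Rgs7 read 1197 and 2008 in deprived and 1334 and 1359 in non-deprived cortex, where the deprived arrays lay on either side of the non-deprived ones (0.20 ± 0.23, SE). Rgs11 gave -0.12 ± 0.26. Rgs6 was too dim to test, at 72.4 and 88.9 against 128 and 126, with no overlap.

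In the R12 family, Rgs14, a signalling scaffold known from hippocampal neurons, read 1682 and 2537 against 2194 and 1923 (0.01 ± 0.21, SE), and the groups overlapped. Rgs10, known from microglia and neurons, gave opposite signs at its 2 tested probe sets. The brighter read 639 and 372 in deprived and 304 and 385 in non-deprived cortex (0.45 ± 0.31), and the dimmer 308 and 275 against 464 and 403 (-0.49 ± 0.30), which averaged to -0.02. The brighter value was 0.10 without deprived array 1 and 0.80 without deprived array 2. The microglial markers had a median of -0.01 over 7 tested genes, 4 lower and 3 higher, and a summed signal of 5289 and 5404 against 5799.9 and 5355.

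Rgs19, of the RZ family, read 716 and 454 in deprived and 520 and 282 in non-deprived cortex at its brightest probe set (0.50 ± 0.32, SE) and gave -0.14 ± 0.36 at its dimmer tested one. The groups overlapped at the brightest probe set, where the value ran from 0.12 without non-deprived array 2 to 0.88 without non-deprived array 1. Over the 11 tested RGS genes the median was 0.01, with 5 lower and 6 higher. Without Rgs4 it was 0.07.

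**Figure D3:**
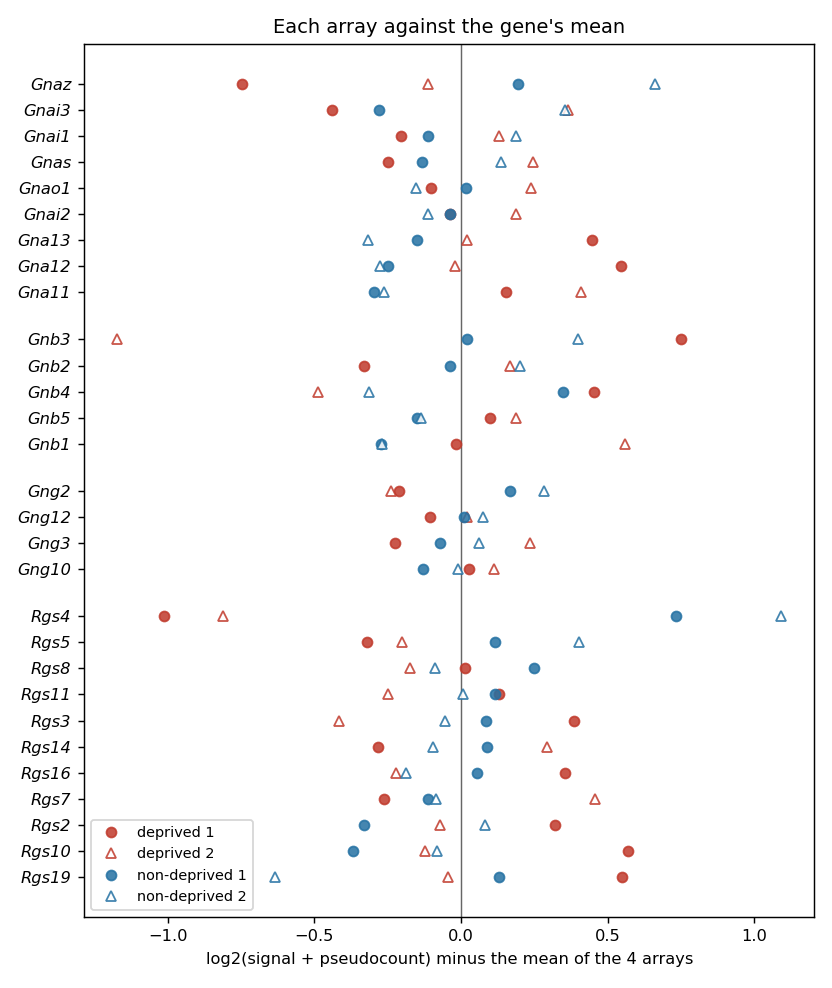
For each of the 29 tested members, the log2(signal + 60.6) of each array minus the mean of the 4 arrays; red is deprived, blue non-deprived, circles replicate 1 and triangles replicate 2. Rgs4 is the gene with the widest gap between colours. Both circles lie on one side of both triangles in Gnai1, Gnai3, Gnas, Gnb2, Gnb4, Gng3, Gng12, Rgs3, Rgs7, Rgs8, Rgs11, Rgs16 and Rgs19. The share of all genes tested for which this holds was not counted, so the list cannot be set against it.

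Probe sets of the same gene often disagreed. Of 15 members with several probe sets, 10 had at least 2 that were tested, and these had 1 sign throughout in 5 genes (Gna13, Gnai1, Gnai2, Gnas and Gng12) and both signs in 5 (Gna11, Gnao1, Gnb1, Rgs10 and Rgs19). Among the 15 further tested probe sets of members, 2 were lower by at least 1.5-fold in all 4 pairs and 0 were higher. These were the dimmer sets of Gnai1 and Gnao1 described above. Of all 1059 further tested probe sets on the array, 3.49% were lower and 0.755% higher by this rule. Probe positions were not analysed here, so whether the probe sets of a gene read different transcripts was not tested.

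**Figure D4:**
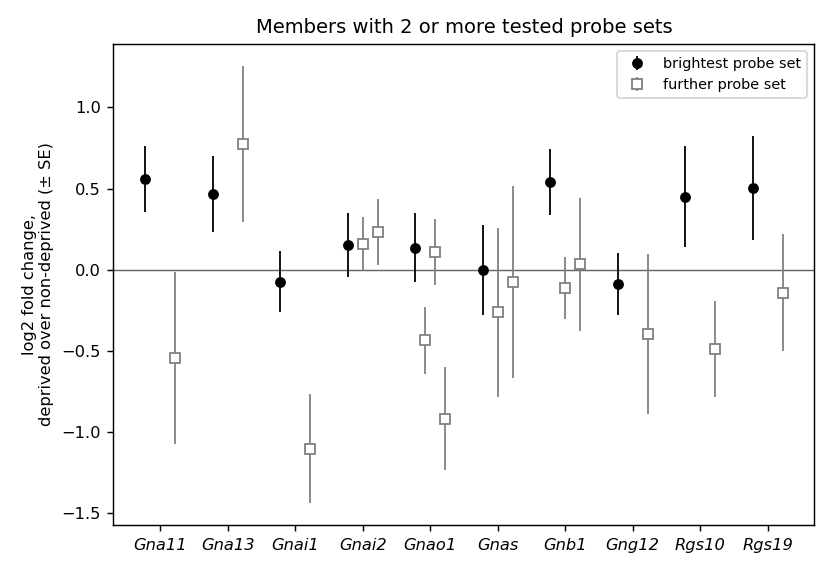
Log2 fold change of deprived over non-deprived cortex (± SE, 2 arrays per group) for each tested probe set of the 10 members with 2 or more; filled circles are the brightest probe set of the gene and open squares the others. Gnai1 (-0.07 and -1.10), Gnao1 (0.14 to -0.92) and Gna11 (0.56 and -0.55) span more than 1 log2 unit.

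The partners of G proteins were followed in 8 lists of 113 effector, regulator and receptor genes, of which 68 were on the array and 44 were tested. None passed the adjusted threshold in limma. An unadjusted p under 0.05 was reached by 2 lower genes (Adcy2 and Htr5b) and 1 higher gene (Adcy4), beside 3.19% and 1.73% of all genes tested. In all, 31 of the 44 were lower and 13 higher, with a median of -0.20, where 49.2% of all genes tested were below 0. In 7 of the 44 the mean of 1 group lay under the filter, the deprived one in 6 of them. The other 37 comprised 25 lower and 12 higher genes, with a median of -0.18.

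Among effectors, the adenylyl cyclases split 3 lower and 3 higher. Adcy4 read 464 and 260.0 in deprived and 72.6 and 83.5 in non-deprived cortex (1.57 ± 0.49, SE, adjusted p = 0.53 in limma), so it was tested only because of its deprived signals and its fold depends on the constant added. Adcy2, a cyclase that beta-gamma stimulates, read 1049 and 1838 against 1964 and 2656 (-0.69 ± 0.25, adjusted p = 0.69). Both cyclases had groups that did not overlap, in opposite directions. Plcb1, the cortical phospholipase C beta downstream of Gq, read 2743 and 2533 against 3002 and 3380.2 (-0.27 ± 0.17), and its other tested probe sets gave -0.61 and -0.66. Of the G protein-gated potassium channel genes Kcnj9 gave -0.42 ± 0.31, with -0.57 at its other tested probe set, and Kcnj6 0.13 ± 0.53. Kcnj3 and Kcnj5 were too dim to test. Kcnj3 read 72.9 and 70.8 in deprived and 234 and 176 in non-deprived cortex, with no overlap. Kcnj5 had overlapping groups.

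Of the 11 tested receptors for amines or acetylcholine, 10 were lower, with a median of -0.18. The list also named adenosine receptors, but none was among its 19 genes on the array. The serotonin receptor gene Htr5b read 78.1 and 85.9 in deprived and 328 and 252 in non-deprived cortex (-1.29 ± 0.50, SE, adjusted p = 0.78 in limma), and its deprived signals too were under the filter. The muscarinic receptor gene Chrm1, which couples to Gq and Gna11, gave -0.47 ± 0.25. Neuropeptide receptors were lower for 8 of 11, with a median of -0.28, among them Cckbr at -0.39 ± 0.20 and Galr1 at -0.62 ± 0.52. Of 3 tested receptors for glutamate, GABA or opioids 2 were lower, Grm8 at -0.33 ± 0.39 and Oprl1 at -0.22 ± 0.32. The other, the GABA-B receptor gene Gabbr1, read 6313 and 7278 in deprived and 5992 and 6430 in non-deprived cortex. Its groups overlapped (0.13 ± 0.18). The cannabinoid receptor genes Cnr1 and Cnr2 were too dim to test. Receptor kinases and arrestins had 2 lower and 1 higher (Grk5 -0.56 ± 0.49, Arrb1 -0.07 ± 0.20), and other regulators of G protein subunits 4 lower and 3 higher (Pcp2 -0.64 ± 0.42, Axin1 0.21 ± 0.22).

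As a check of the tissue, the excitatory neuron markers Nrgn and Tbr1 and the inhibitory marker Gad1 were bright on all 4 arrays. Other markers of these lists were dim. Gad2 read 162 and 185 in deprived and 110 and 158 in non-deprived cortex. Neurod1 read 199 and 209 against 256 and 131, and Neurod6 241 and 178 against 210 and 292. The summed signal of the 7 inhibitory markers was 15328 and 18661 in deprived and 18750 and 20473 in non-deprived cortex, and that of the 5 oligodendrocyte markers 12402 and 11174 against 10395 and 9156. Neither list overlapped between groups. That of the 5 excitatory markers, 12496 and 15788 against 14092 and 15423.0, and that of the 6 astrocyte markers, 12978 and 15102 against 14754 and 13702, did overlap. Such sums rest mostly on the brightest probe sets, and single markers differed from them. Camk2a of the excitatory list read 842 and 886 against 1154 and 1604 (-0.62 ± 0.21, SE, adjusted p = 0.59 in limma), and its other tested probe set gave -1.74. Slc1a2 of the astrocyte list read 362 and 178 against 570.2 and 576 (-0.997 ± 0.33, adjusted p = 0.58). Both were lower in deprived cortex without overlap. In the inhibitory list, 6 genes were lower and 1 higher. Vip of that list read 80.4 and 88.5 against 313 and 230, without overlap (-1.19 ± 0.51, adjusted p = 0.89 in limma). The deprived mean of Vip, 84.5, lay under the filter. In the oligodendrocyte list, Mobp read 4854 and 4574 against 3707 and 3079 (0.47 ± 0.17, adjusted p = 0.69). The other tested probe sets of Mobp went the other way, at -0.14, -0.59 and -0.64. Mbp, the brightest of that list, read 6151 and 5317 against 5521 and 4900 and overlapped between groups. The 3 striatal markers on the array summed to 1612 and 1490 against 1395 and 1306, and none of these markers was at 0. The part of these shifts in the members' values was not tested.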

How the data were processed

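The 4 arrays were grouped by their titles. The authors deposited intensities on a linear scale, 1 MAS5 signal per probe set, per the submitters' processing notes; scaling settings and detection calls are not given in the sources used here. Of 12488 probe sets, 10855 had 1 gene symbol in the platform annotation, 396 several and 1237 none. All 62 member probe sets were matched by Entrez identifier to RefSeq genes of GRCm38.p6.

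Arrays were scaled to one 2% trimmed mean, 60.6 (the 20th percentile of mean signals) was added and log2 taken, so fold changes of dim probe sets are understated. Controls and probe sets with a mean signal under 142.9, the 40th percentile, were left out, which kept 7458. limma 3.58.1 in R 4.3.3 (eBayes with a mean-variance trend, two-sided, Benjamini-Hochberg over the 7458) had 2 residual degrees of freedom, 11.6 with the prior. It was also run on simulated data with independent arrays and a spread that followed a smooth trend in mean signal. That run cannot show whether these assumptions hold for the real arrays. Precision is limited by the number of arrays, 2 per group; the smallest two-sided p of an exact permutation test is 0.333.

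The design text mentions cross-animal comparisons, but the labels tie no replicate number to an animal, so arrays with the same number were not taken as pairs; a fit with the replicate block was an alternative. Other alternatives were the pseudocount, the filter, the scaling, the trend, averaged probe sets and each array left out.

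Values on each array are given for the 12 tested members with the smallest p, the 2 brightest of each class and members with several tested probe sets, 1 of them at an unadjusted p under 0.05. Rgs2, Rgs6, the members in the plots and those too dim to test were added after their values were seen. Members and lists were chosen with earlier results of these data known.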

Additional observations from a re-analysis of the deposited data

How the results depend on the processing

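Among fits to all 4 arrays, calls depended on the setting for Rgs4 alone. The count of members past an adjusted p of 0.05 was 0 in the reported fit and in 7 of 8 other fits to all arrays, and 1 with the replicate block (Rgs4, adjusted p = 0.016), where 0.443% of all genes passed as lower and 0.0177% as higher. Deviations of same-numbered arrays correlated with r = 0.27 over probe sets, but no label ties a number to animals, so the block is not taken as a pairing. At a threshold of 0.2 it was 1, and the share of all genes at that threshold was not counted. A fit with 1 array left out has a single array in 1 group, so only log2 fold changes of such fits are used here. The count at 1.5-fold in all pairs was 1, became 2 in same-numbered pairs only and 5 at a fold of 1.2, as fewer or looser conditions imply, and ran from 1 to 5 with 1 array left out. Shares of all genes were not counted for these altered rules, so the counts cannot be set against them. Class medians had no settled sign. That of alpha was -0.038 without a filter and -0.075 over averaged probe sets, that of beta 0.29 with a filter at the 60th percentile, which left 3 genes. With 1 array left out, alpha ran from -0.035 to 0.25, beta from -0.044 to 0.28, gamma from -0.19 to 0.080 and RGS from -0.15 to 0.068.

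Over the 32 probe sets of 19 named members, 21 of the 362 values changed sign and the others kept theirs. Averaging probe sets turned Gnao1 to -0.28 and Rgs10 to -0.019; quantile normalization turned Gnas to 0.087 and Gng3 to -0.018, and a common median turned Gnas to 0.020. With 1 array left out, 14 of the 19 moved by over 1.5 times at their brightest probe set, 7 of them across 0. Those ran from -0.24 to 0.094 (Gnai1), -0.035 to 0.31 (Gnao1), -0.25 to 0.25 (Gnas), -0.41 to 0.086 (Gnb2), -0.22 to 0.24 (Gng3), -0.28 to 0.30 (Rgs14) and -0.16 to 0.56 (Rgs7). Further probe sets ran from -1.27 to 0.17 (Gna11), -0.68 to 0.52 (Gnas), -0.26 to 0.032 and -0.33 to 0.40 (Gnb1) and -0.80 to 0.0053 (Gng12). Apart from what a rule's construction implies, the cause was not tested.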
